A study of Mus musculus with 4 samples.

Results

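Single uninterrupted peaks of H3K4me3 at least 4 kb wide were examined in heart tissue of adult female mice. The mark, trimethylated lysine 4 of histone H3, was mapped by ChIP-seq (chromatin immunoprecipitation with sequencing) in B6CASTF1/J animals, a hybrid strain, at 2 months of age. Pool G and pool H, labelled biological replicates 1 and 2, each combined 2 heart biosamples and carried 2 technical replicates. Both pools share strain, sex, age and tissue, and their labels name 1 donor record, so nothing says that they held different animals. The deposited values were 4 lists of peaks on mm10, and the replicated list of both pools defines the peaks described here. A peak was taken where its end lay 4000 bp or more beyond its start, with no gap between neighbouring peaks joined, which selected 421 of 24996 peaks (1.68%). In the pools' own lists the same width was reached by 555 of 24826 peaks in pool G (2.24%) and by 235 of 21505 peaks in pool H (1.09%). Width chose these peaks, so their widths are a description. With 2 pools and 1 list per pool no test across samples was possible, and every comparison below is a description of these lists.

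H3K4me3 is laid down around the starts of active genes, where it is bound by factors that help load and release RNA polymerase II. At most active promoters the mark forms a short block on either side of the start, while some genes carry a much longer block that runs into the gene body. Long blocks are known from genes of cell identity in many tissues, including the transcription factors of the heart. Whole heart tissue holds cardiac muscle cells, endothelial cells, fibroblasts, mural cells and leukocytes, and in such a mixture a mark in more cells and more of the mark per cell cannot be told apart.

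To show the kinds of sequence that lie at the starts under these peaks, 4 promoters are printed, each from 250 bases before to 50 bases after the RefSeq start on GRCm38.p6, in the direction of the gene, with every CG dinucleotide in capitals. Pcdh7, a protocadherin of cell adhesion, has the widest peak among the genes with a printed promoter. Anp32a, an acidic nuclear phosphoprotein, has the longest CpG-dense stretch of all the wide peaks. Fhl2, a LIM-domain protein of heart muscle, and Ackr3, an atypical chemokine receptor, lie under peaks with no CpG-dense window. The Pcdh7 promoter is at chr5:57717831-57718130 on the plus strand, Anp32a at chr9:62341093-62341392 on the plus strand, Fhl2 at chr1:43196712-43197011 on the minus strand and Ackr3 at chr1:90203730-90204029 on the plus strand.
Pcdh7: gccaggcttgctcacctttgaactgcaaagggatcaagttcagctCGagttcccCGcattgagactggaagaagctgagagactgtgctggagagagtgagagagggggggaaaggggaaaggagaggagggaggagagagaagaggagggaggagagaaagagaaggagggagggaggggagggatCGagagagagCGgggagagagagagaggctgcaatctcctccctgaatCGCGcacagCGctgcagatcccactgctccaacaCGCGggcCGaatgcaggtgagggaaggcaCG
Anp32a: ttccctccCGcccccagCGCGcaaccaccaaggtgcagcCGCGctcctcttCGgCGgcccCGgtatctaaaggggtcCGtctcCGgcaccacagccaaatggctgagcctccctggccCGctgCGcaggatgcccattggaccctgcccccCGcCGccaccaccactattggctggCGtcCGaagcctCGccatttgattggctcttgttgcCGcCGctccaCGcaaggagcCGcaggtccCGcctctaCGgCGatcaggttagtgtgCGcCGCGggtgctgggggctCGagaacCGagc
Fhl2: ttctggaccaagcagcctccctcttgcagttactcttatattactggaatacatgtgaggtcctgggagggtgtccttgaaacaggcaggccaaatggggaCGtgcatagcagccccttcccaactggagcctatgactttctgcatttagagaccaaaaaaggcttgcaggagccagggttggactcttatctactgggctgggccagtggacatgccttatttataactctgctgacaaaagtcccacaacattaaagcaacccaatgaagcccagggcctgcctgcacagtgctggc
Ackr3: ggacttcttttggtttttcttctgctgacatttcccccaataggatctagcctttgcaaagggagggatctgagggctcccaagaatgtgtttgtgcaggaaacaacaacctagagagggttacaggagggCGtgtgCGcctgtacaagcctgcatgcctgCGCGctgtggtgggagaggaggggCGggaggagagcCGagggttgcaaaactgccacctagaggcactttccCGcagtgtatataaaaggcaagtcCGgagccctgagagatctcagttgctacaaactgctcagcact
These promoters hold 11 CG dinucleotides in Pcdh7, 29 in Anp32a, 1 in Fhl2 and 8 in Ackr3. RefSeq promoters were matched for 210 of the 347 wide peaks that cover the starts of 1 protein-coding gene, and their median was 24 CG dinucleotides per 300 bases, against 14 over 20054 promoters of 16426 genes. The 20054 were not limited to genes with a peak, and 12783 of 21670 protein-coding genes had a start under any peak. Promoters under narrower peaks were not counted separately, so whether the difference is particular to wide peaks is not known. The letters TATAAA, searched on both strands with no other motif, occurred in 22 of the 210 promoters (10.5%), the Fhl2 and Ackr3 promoters among them, and in 12.1% of all promoters. Wide peaks thus lay over starts as poor in CG as that of Fhl2 and as rich as that of Anp32a.

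The widths ranged from 4006 to 13362 bp, with a median of 4697 bp and quartiles of 4266 and 5415 bp. Of the 421 peaks, 156 reached 5000 bp, 72 reached 6000 bp, 31 reached 7000 bp, 15 reached 8000 bp and 2 reached 10000 bp. They covered 2.13 Mb, which is 6.96% of the 30.7 Mb covered by all peaks. Just inside the threshold lay the peaks at Enoph1 and Hnrnpdl (4006 bp), Ccdc148 and Pkp4 (4007 bp), Tagln2 (4012 bp), Fign (4014 bp) and Lims2 (4018 bp). Just outside it lay a peak on chromosome 1 that covered no protein-coding start (3998 bp) and those at Ccdc85b (3995 bp), Plekho1 (3991 bp), Nfe2l2 (3985 bp) and Msl1 (3981 bp). The smallest gap between neighbours was 77 bp in the replicated list and in the list of each pool, so a dip in the mark shorter than that does not interrupt a peak in these lists. How deeply the libraries were sequenced is not known here.

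The widest uninterrupted peak lay over Gata6, a zinc-finger transcription factor of heart development, and measured 13362 bp in the replicated list. In the pools' own lists the widest peak at Gata6 was 12573 bp in pool G and 7905 in pool H, or 10239 ± 3301 bp (SD, n = 2 pools). The pools' own lists interrupted it, with 2 peaks under it in pool G and 5 in pool H, whose outer edges spanned 13549 bp in pool G and 13117 in pool H. Pcdh7 followed with 11261 bp, and there the pools lay closer, with 11276 bp in pool G and 10525 in pool H, where it lay in 2 peaks. Nrp1, a co-receptor for vascular endothelial growth factor and semaphorins, carried 9011 bp, with 9470 bp in pool G and 8872 in pool H. Meox2, a homeobox factor, carried 8826 bp, with 10426 bp in pool G and 8746 in pool H. Thus the 4 widest peaks were 7905 bp or wider in both pools.

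Among the next widest were regulators of chromatin, insulin signalling and caveolae. Kmt2e and Setd1b encode SET-domain proteins, the second of them an enzyme that methylates lysine 4 of histone H3, and their peaks of 8791 and 8329 bp measured 8865 and 10100 bp in pool G and 7232 and 7465 bp in pool H. Cavin1, a coat protein of caveolae, had 8682 bp, with 9087 bp in pool G and 5857 in pool H. Irs1, an adaptor of the insulin receptor, had 8644 bp, with 8734 bp in pool G and 4695 in pool H. The kinase gene Sgk1 had 8546 bp and was nearly the same in both pools, with 8581 bp in pool G and 8529 in pool H. Heart muscle was represented by Tpm1, which encodes the tropomyosin of the thin filament, with 8292 bp, and by Atp2a2, whose pump returns calcium to the sarcoplasmic reticulum, with 8100 bp. The Tpm1 peak measured 9735 bp in pool G and 4035 in pool H, while that of Atp2a2 had 8060 bp in pool G and 7436 in pool H. Meis1 and Tcf4, both transcription factors, had 8405 and 8030 bp.

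**Figure D1:**
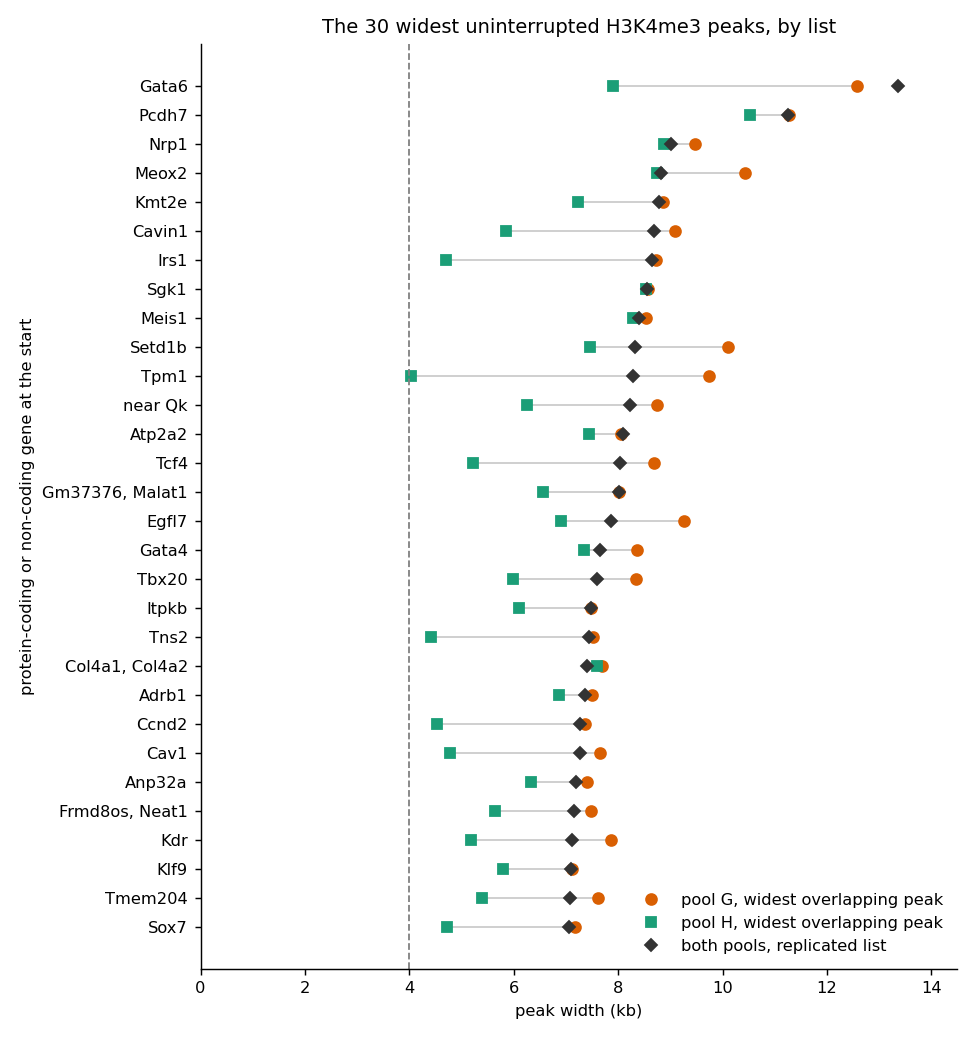
Width in kb of the 30 widest uninterrupted H3K4me3 peaks (black diamonds, replicated list of both pools) with the widest overlapping peak of pool G (orange circles) and of pool H (green squares), and a dashed line at 4 kb. All 30 stay right of the line in both pools, and pool H is nearest to it at Tpm1, with 4035 bp.

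Nearly all wide peaks covered the start of a protein-coding gene. Of the 421, 385 (91.4%) covered such a start, against 12312 (50.1%) of the other peaks, and a wide peak has more room to cover one. The share was nearly the same in the bands below, with 90.8% at 3 to 4 kb and 90.4% at 2 to 3 kb. Under 1 kb it was 18.2%. The 421 wide peaks took in the starts of 418 of 21670 protein-coding genes (1.93%), or of 418 of the 12783 genes with a start under any peak (3.27%). A single gene lay under 347 of them, a pair of genes under 37 and 3 genes under 1, the peak at Hcfc1r1, Thoc6 and Tnfrsf12a. Starts of 2 or more genes lay under 9.03% of the wide peaks, against 13.9% at 3 to 4 kb and 14.8% at 2 to 3 kb. Of the 37 pairs, 20 were divergent with no overlap at the starts, 14 convergent or overlapping and 3 on the same strand. The widest shared peak, at 7394 bp, lay over the starts of Col4a1 and Col4a2, genes on opposite strands for chains of basement membrane collagen, whose annotated ends overlap at the starts and which count among the 14, and had 7699 bp in pool G and 7603 in pool H. In 85 peaks the start of a non-coding gene lay beside a coding one. Among peaks with 1 protein-coding gene, and with small RNAs left out, the share was 23.3% in wide peaks and 23.4% at 3 to 4 kb.

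Genes with more than 1 start could carry several wide peaks. Cd36, the fatty acid transporter of muscle and endothelium, had 3, of 6068, 4632 and 4102 bp, each at a different start. Gata4, a partner of Gata6 in heart development, had peaks of 7659 and 4350 bp, and Tcf4 had 8030 and 6471 bp. Arid5b, a DNA-binding factor, and Dlc1, a GTPase-activating protein, also had a pair each. Of the 3 Cd36 peaks, 1 reached 4 kb in pool H, the narrowest of them, with 4491 bp, against 4110 bp in pool G.

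The remaining 36 peaks covered no protein-coding start. For 17 of them a start lay within 1000 bp, at a median distance of 130 bp and a range of 14 to 913 bp. The peak lay downstream of the start in 16 cases and upstream in 1, at Tnrc18. In 13 of the 17 the start fell in the gap between the wide peak and the next one. That gap was long at Cdh5 (1791 bp), Perm1 (11452 bp), Asph (24393 bp) and Clec14a (268777 bp), where no adjoining peak lay close by. Qk, an RNA-binding regulator of splicing, is the widest of the 17, with a peak of 8222 bp that begins 357 bp downstream of the start. The Qk peak had 8753 bp in pool G and 6253 in pool H. Pln, which encodes phospholamban, the inhibitor of the calcium pump, missed its start by 14 bp, and Cdh5, the cadherin of endothelial junctions, by 21 bp. When starts within 1000 bp were counted, the genes numbered 437 (2.02%).

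A further 13 wide peaks covered only starts of non-coding genes. Malat1, an abundant nuclear RNA, lay under 8018 bp, with 8008 bp in pool G and 6551 in pool H. Neat1, the RNA core of paraspeckles, lay under 7150 bp, with 7473 bp in pool G and 5650 in pool H. D830005E20Rik, annotated antisense within Trdn, a protein of the calcium release complex, had 6799 bp, with 7004 bp in pool G and 4635 in pool H. Mhrt, an antisense transcript of the myosin heavy chain locus known for its expression in adult mouse heart, had 6154 bp, with 6136 bp in pool G and 3998 in pool H. A second wide peak of 4820 bp lay inside the neighbouring Myh6 gene for the alpha myosin heavy chain, and no wide peak covered the Myh6 start. This peak had the largest ratio of pool G to pool H width, with 8985 bp in pool G and 1983 in pool H. Its signal in the replicated list was the lowest of all 421, and the next peak lay 103 bp away. Another 2 lay within introns only, of Rapgef1 and Ets1, and 1 lay between genes, with Ppara, a nuclear receptor of fatty acid oxidation, as the nearest.

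Around the start the wide peaks were lopsided toward the gene body. Over the 347 peaks with 1 gene, measured from the most upstream covered start, the median reach was 846 bp upstream (quartiles 464.5 and 1330 bp) and 3840 bp downstream (quartiles 3317 and 4642 bp). The median share of the width that lay downstream was 82.4%. In peaks that cover 1 gene the same share was 69.7% at 1 to 2 kb (n = 6292), 72.6% at 2 to 3 kb (n = 2195) and 78.8% at 3 to 4 kb (n = 552). The upstream reach changed less with width than the downstream one, from medians of 440, 652 and 722.5 bp upstream and 1018, 1706 and 2657 bp downstream in these bands. A larger reach upstream than downstream was found in 16 of the 347 peaks (4.61%), against 5.25% at 3 to 4 kb and 7.88% at 2 to 3 kb.

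The extremes show both forms. Setd1b reached 6474 bp upstream and 1855 bp downstream, Mllt6, a partner of the histone methyltransferase Dot1l, reached 4248 and 1690 bp, and Kmt2e reached 4033 and 4758 bp. Each of these peaks also covered the start of a non-coding gene, which 23.3% of the wide peaks with a single coding gene did. At the other end, Atp2a2 reached 38 bp upstream and 8062 bp downstream, Cavin1 reached 349 and 8333 bp and Tpm1 reached 671 and 7621 bp. Upstream of the Atp2a2 peak the next peak lay 139 bp away, so the mark there did not end at 38 bp. The Tpm1 peak covered 16 starts of that gene, spread over 5697 bp. An upstream reach under 100 bp was measured in 35 of the 347 peaks (10.1%), and one of at least 2000 bp in 42. The share under 100 bp was 10.3% at 2 to 3 kb and at 3 to 4 kb, and 15.3% at 1 to 2 kb. Gata6 reached far both ways, with 4002 bp upstream and 9360 bp downstream, and its peak also covered a non-coding start. In the pools' own lists the outer edges gave median reaches of 935 bp upstream and 4099 bp downstream in pool G, and 813 bp upstream and 3687 bp downstream in pool H. Edges differed between the pools by a median of 87 bp on the upstream side and 289 bp on the downstream side.

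**Figure D2:**
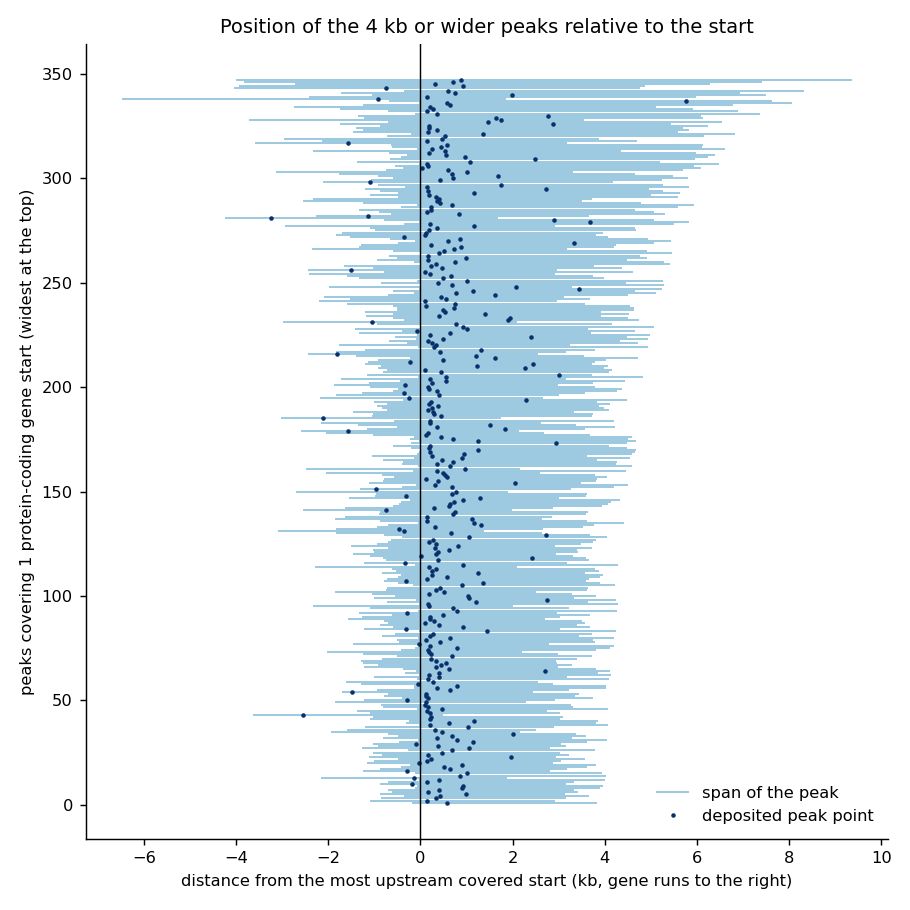
Span of the 347 wide peaks that cover the starts of 1 protein-coding gene, as distance in kb from the most upstream covered start, with the gene running to the right, sorted by width with the widest at the top. Blue lines are the peaks and dark dots the deposited peak points, and most of each line lies right of 0, with a median downstream share of 82.4%.

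The downstream end lay in the first intron in 191 of the 347 peaks (55.0%) and past it in 150 (43.2%). Of the 150, 96 ended in a later intron, 29 in a later exon and 25 past the end of the gene, and the remaining 6 of the 347 ended in exon 1. In peaks of 1 to 2 kb, 77.6% ended in the first intron. Short genes were covered from end to end by 22 peaks. Adrb1, which encodes the main beta-adrenergic receptor of the heart, has a span of 2952 bp and lay under a peak of 7364 bp, with 7503 bp in pool G and 6864 in pool H. Hand2, a transcription factor of the right ventricle, Thbd, the endothelial anticoagulant thrombomodulin, Slc25a4, the ADP/ATP carrier of heart mitochondria, and Actb, the cytoskeletal actin, were covered whole too. The peak over Hand2 had 6929 bp in pool G and 3271 in pool H.

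The deposited peak point, the position of highest signal in a peak, lay close to the start despite the width. Its median was 408 bp downstream (quartiles 182.5 and 805.5 bp), against 198 bp in peaks of 1 to 2 kb. It lay downstream of the start in 311 of the 347 peaks (89.6%), a share like that of narrower peaks. Theirs was 90.5% at 1 to 2 kb, 87.2% at 2 to 3 kb and 87.0% at 3 to 4 kb. In 22 of the 347 it lay at least 2000 bp downstream, against 9 of 552 at 3 to 4 kb, which have less room for it. Tpm1 had its point 5774 bp downstream of the most upstream start. The Tpm1 starts under that peak spread over 5697 bp, so the point lay near another start of the gene.

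Width did not come with a higher signal among these peaks. The deposited signal value, read here as fold enrichment, had a median of 16.0 in the 421 wide peaks (quartiles 12.5 and 19.4). Peaks of 3 to 4 kb had a median of 16.1, those of 2 to 3 kb 16.6, those of 1 to 2 kb 14.1 and those under 1 kb 3.94. Among the 421 highest signal values of the list were 15 of the 421 wide peaks, which make up 1.68% of all peaks. The Spearman correlation between width and signal was -0.03 over the 421 wide peaks and 0.77 over all 24996 peaks, a description across peaks that share their libraries. Signal and width come from the same reads.

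The strongest and the weakest wide peaks lay at different genes. Pfn1, the actin-binding profilin, had the highest signal, 27.3, followed by Patz1, a zinc-finger factor, at 26.9, Jup, the junction protein plakoglobin, at 26.1, and Thra, the thyroid hormone receptor of the heart, at 25.7. Hnrnpu, an RNA-binding protein of the nucleus, had 25.6. At the low end stood the peak within Myh6 at 4.93, the widest of Cd36 at 4.97, the glucocorticoid receptor gene Nr3c1 at 4.99, Tnnt2, which encodes cardiac troponin T, at 5.39, and Fabp3, the fatty acid binding protein of heart muscle, at 6.39. Adcy6, a cardiac adenylyl cyclase, had 6.19. The next peak lay 78 bp from that of Nr3c1 and 103 bp from that within Myh6. Pool G held each of these places in a single wider peak, of 11015 bp at Nr3c1 and 8985 bp within Myh6. The signal of those pool G peaks was 20.2 and 12.3, so the low values depend on where the replicated list ends a peak. The Thra peak measured 4546 bp in pool G and 4312 in pool H, and that of Jup 5119 bp in pool G and 3118 in pool H. All 421 had a -log10 q of at least 10.5.

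**Figure D3:**
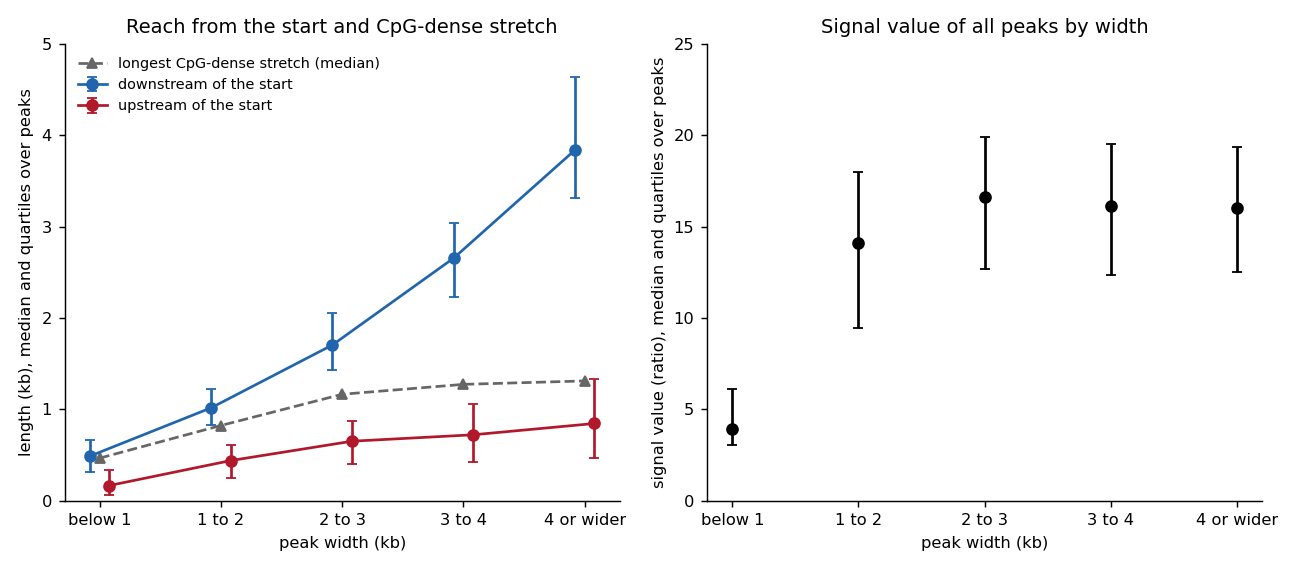
Left, median reach in bp shown as kb from the most upstream start, downstream (blue) and upstream (red), with quartiles over peaks, and median longest CpG-dense stretch (grey triangles), by peak width, for peaks that cover 1 gene. Right, median signal value with quartiles for all peaks by width. Downstream reach is 3840 bp in peaks of 4 kb or wider, while the signal stays near 16.0 from 2 kb upward.

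Among the wide peaks the length of CpG-dense sequence varied more with shape than with width. A window of 200 bp was called CpG-dense where its CpG count was 0.6 or more of the count its base composition predicts and 0.5 or more of its bases were G or C. The longest CpG-dense stretch had a median of 1312 bp in the 347 wide peaks with 1 gene, against 1274.5 bp at 3 to 4 kb, 1166 bp at 2 to 3 kb and 824 bp at 1 to 2 kb. As a share of the peak's width this was 25.7% in the wide peaks, against 38.0% at 3 to 4 kb, 49.5% at 2 to 3 kb and 57.0% at 1 to 2 kb. Within the wide peaks, the Spearman correlation of the stretch was 0.13 with width, 0.44 with upstream reach and -0.24 with downstream reach (n = 347 peaks, which share their libraries). Peaks of 1 to 4 kb gave 0.45 with width (n = 9039).

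Grouped by that stretch, the peaks differed in reach and signal. The 17 peaks with no dense window had median reaches of 413 bp upstream and 4585 bp downstream and a median signal of 10.2. The 101 peaks with a stretch under 1000 bp had 600 and 4001 bp and a signal of 14.3, and the 155 with at least 1000 and under 2000 bp had 868 and 3820 bp and a signal of 16.8. In the 74 with 2000 bp or more the reaches were 1403 and 3569.5 bp and the signal 17.7. In pool H, 4 kb was reached by 9, 50, 80 and 52 peaks of these groups, or 52.9%, 49.5%, 51.6% and 70.3%. The longest stretches were those of Anp32a (4747 bp), Efna5, a ligand of Eph receptors (4197 bp), the transcription factor Foxo3 (4105 bp), Pcdh7 (3823 bp) and the cadherin Fat4 (3677 bp). Over all 421 peaks, 23 had no dense window between their edges, and sequence beyond the edges was not counted. Among them were Tmem204 at 7083 bp, Fhl2 at 6776 bp, Nr3c1 at 6645 bp, Cd93, an endothelial surface receptor, at 6492 bp, and all 3 peaks of Cd36. Of the promoters printed above, those of Anp32a and Fhl2 lie under peaks at the ends of this range of stretches.

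The number of peaks that stayed 4 kb wide differed between the pools. All 421 had an overlapping peak in both pools, and 405 (96.2%) had one of 4 kb or more in pool G, against 229 (54.4%) in pool H. Both pools reached 4 kb for 226 (53.7%), pool G alone for 179 (42.5%), pool H alone for 3 and neither for 13. The replicated list was made from both pools, so these counts are not independent of it. The median of the widest overlapping peak was 4912 bp in pool G and 4059 in pool H, and pool G was the wider in 393 of the 421. The median log2 ratio of pool G to pool H was 0.29, against 0.20 in the 12246 peaks of 1 to 4 kb found in both pools. At the wide peaks the median signal was 19.3 in the list of pool G and 13.4 in that of pool H, and over all peaks 9.88 in pool G and 8.89 in pool H. The part of signal or depth in the width difference was not tested.

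**Figure D4:**
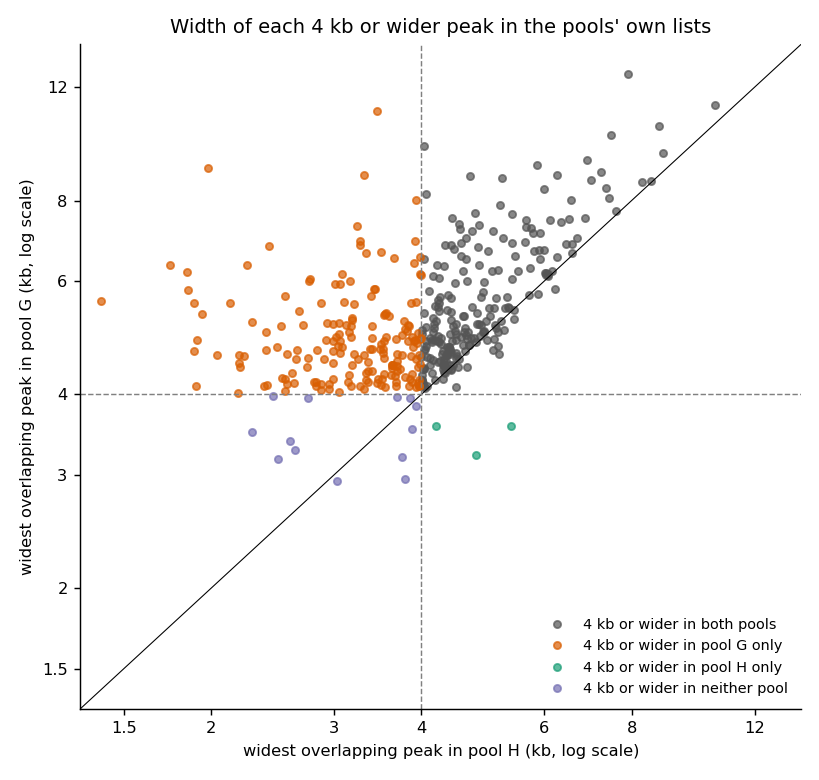
Widest overlapping peak in pool G's own list (vertical, kb, log scale) against that in pool H's own list (horizontal, kb, log scale) for each of the 421 wide peaks, with dashed lines at 4 kb and a solid line of equality, coloured by the pools in which 4 kb is reached. Of the 421, 393 lie above the line of equality, and the 179 orange points reach 4 kb in pool G only.

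In pool H many of the wide peaks were broken into pieces. Pool H had 2 or more peaks under 186 of the 421 (44.2%), against 18 (4.28%) in pool G. Among peaks of 2 to 4 kb, 17.9% lay in 2 or more peaks in pool H and 2.10% in pool G. Of the 192 that fell short of 4 kb in pool H, 132 were split, 127 still had a peak of 3 kb or more, and 100 had pieces whose outer edges spanned 4 kb. A median of 94.2% of a wide peak was still covered by pool H's peaks, and 100% by pool G's. In the peaks with 1 gene, 201 gaps of pool H were found, with a median length of 122 bp. Downstream of the start lay 153 of these gaps (76.1%), and over the 347 peaks with 1 gene a median of 82.4% of the width lay there. The share of gaps downstream was thus not above the share of width. The median position of the gaps relative to the start was 2374 bp, and 7 gaps held the start itself.

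Retention in pool H was higher among the wider of these peaks. At 4 to 4.5 kb, 57 of 170 peaks (33.5%) reached 4 kb in pool H, against 159 (93.5%) in pool G. The counts in pool H were 96 of 152 (63.2%) at 4.5 to 5.5 kb and 45 of 68 (66.2%) at 5.5 to 7 kb, and all 31 peaks of 7 kb or more reached it in both pools. These bands use the width that chose the peaks. Splitting in pool H was also more frequent in the wider bands, with 2 or more pool H peaks under 60 (35.3%), 65 (42.8%), 41 (60.3%) and 20 (64.5%) of them from narrow to wide. When the peaks were put into 4 groups of like size by signal, from low to high, the share in pool H was 51.4%, 47.6%, 61.0% and 57.5%. The spread between the pools at a single peak had a median SD of 679.5 bp (n = 2 pools), against a median of the mean width of 4471.5 bp.

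Single genes show how far the pools could part. Bmp4, a signalling ligand of the BMP family, had 5581 bp in pool G and 1393 in pool H, the narrowest of all in pool H. Rgcc, a regulator of the cell cycle, had 6185 bp in pool G and 1848 in pool H, and Nr3c1 had 11015 bp in pool G and 3460 in pool H. In the replicated list the Nr3c1 peak had 6645 bp, with the next peak 78 bp away. Tbx5, a T-box factor of the heart, had 5551 bp in pool G and 1888 in pool H. The reverse was seen at Nr2f2, an orphan nuclear receptor of atria and veins, with 3567 bp in pool G and 5369 in pool H. Jph2, which holds the junctional membrane to the sarcoplasmic reticulum, had 3226 bp in pool G and 4785 in pool H. Among the 13 that reached it in neither pool were Zcchc2, 5597 bp in the replicated list with 3531 bp in pool G and 3880 in pool H, and Tnnt2, 4710 bp with 3387 bp in pool G and 2597 in pool H.

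Peaks chosen in 1 pool were also measured in the other, whose reads did not choose them. Of the 555 peaks of 4 kb or more in pool G, 227 (40.9%) met a peak of 4 kb or more in pool H, against 1.02% of all pool G peaks. Their median width in pool H was 3796 bp. Of the 235 in pool H, 227 (96.6%) met one in pool G, against 4.62% of all pool H peaks, at a median of 5196 bp in pool G. A wide peak of the replicated list was overlapped by 405 of the 555 and by 229 of the 235.

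Joining of gaps gave another set of wide domains. With gaps of up to 1000 bp bridged, 875 domains reached 4 kb, of which 419 held a single peak of that width and 456 did not. A neighbour within 1000 bp was present at 221 of the 421 wide peaks (52.5%), against 24.6% of the other peaks that cover a protein-coding start, and 128 had one within 200 bp. By contrast 200 stood alone in their domain, Gata6 and Pcdh7 among them. After joining, the median domain at a wide peak was 5465 bp, and starts of 918 genes (4.24%) lay in such a domain.

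Cardiac transcription factors and endothelial genes were the groups of 10 or more genes with the largest shares under single wide peaks. Of 30 cardiac transcription factors 13 had a start covered, against 1.93% of all protein-coding genes, and 22 had one in a joined domain of 4 kb, against 4.24%. Beside Gata6, Gata4 and Meis1 these were Tbx20 (7591 bp), Hand2, Irx5, Tbx3, Tbx5, Nr2f2, Foxp1, Zfpm2, Mef2c and Mef2d. Tbx20, a T-box factor needed in the adult heart, had 8333 bp in pool G and 5986 in pool H. Their 14 peaks, 2 of them at Gata4, reached 4 kb 13 times in pool G and 9 times in pool H. Signal values ran from 6.70 at the second Gata4 peak to 22.5 at Mef2d.

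Of 30 endothelial genes 14 had a start covered, and 20 had one in a joined domain. The widest were Egfl7, a secreted regulator of vessels, with 7865 bp (9257 bp in pool G, 6898 in pool H), Kdr, the main receptor for vascular endothelial growth factor, with 7113 bp (7870 bp in pool G, 5182 in pool H), and Sox7 with 7052 bp (7168 bp in pool G, 4721 in pool H). Gata2, a zinc-finger factor of endothelium, had 6679 bp, with 6796 bp in pool G and 2419 in pool H. Of these 14 peaks 13 reached 4 kb in pool G and 11 in pool H. The Egfl7 peak also holds the microRNA miR-126a, which lies in an intron of that gene and is known from endothelium, at chr2:26591402-26591423 on the plus strand. Its mature strand, from RefSeq on GRCm38.p6, has the seed, bases 2 to 8, in capitals.
mmu-miR-126a-3p: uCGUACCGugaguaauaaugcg
Sequences of miR-126b, on the opposite strand, miR-1903 under the Nrp1 peak and miR-1938 under the Ifrd1 peak also lay within wide peaks.

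Genes of the contractile machinery had a smaller share under single wide peaks than cardiac factors and endothelial genes. Of 30 sarcomere and Z-disc genes 3 had a start covered, Tpm1, Tnnt2 and Mybpc3, the cardiac myosin binding protein C, with 4483 bp (4321 bp in pool G, 3337 in pool H). In joined domains there were 13. Ttn, the giant spring protein titin, had a widest single peak of 2205 bp and a joined domain of 6758 bp, Actc1, cardiac actin, 3360 and 7655 bp, and Tnnc1, cardiac troponin C, 920 and 5780 bp. Of these 3 peaks 2 reached 4 kb in pool G and 1 in pool H. Of 30 ion channel and calcium handling genes 5 were covered, Atp2a2, Gja1, the gap junction protein connexin 43, with 6094 bp (6166 bp in pool G, 6026 in pool H), Jph2, the potassium channel Kcnj2 and the calcium channel Cacna1c. Of 30 fatty acid and respiration genes 4 were covered, Cd36, Slc25a4, Fabp3 and Ppargc1a, a coactivator of mitochondrial genes. The Fabp3 peak measured 5676 bp in pool G and 5307 in pool H.

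Feedback inhibitors, Notch genes, Klf and Sp factors and immediate early genes had shares between those of endothelial and sarcomere genes. The lists share genes, so their shares are not separate. Dll4, Notch1 and Klf2 also count among the endothelial genes, and Nr2f2 counts both as a cardiac factor and as a nuclear receptor. Dusp1 is both a feedback inhibitor and an immediate early gene. Of 21 feedback inhibitors of kinase signalling 7 were covered, led by Dusp6, a phosphatase of ERK, with 6050 bp (6148 bp in pool G, 6066 in pool H). Of 17 Notch pathway genes 5 were covered, Dll4, Notch1, Maml2, Hey1 and Jag1, and all 5 peaks reached 4 kb in both pools. Of 18 Klf and Sp factors 6 were covered, led by Klf9 with 7100 bp (7117 bp in pool G, 5788 in pool H). Of 22 immediate early genes 6 were covered, led by Fosl2 with 6441 bp (6634 bp in pool G, 3334 in pool H), and 15 lay in joined domains. Of 28 genes of TGF-beta, BMP and Smad signalling 6 were covered, led by Smad7, an inhibitor of that pathway, with 7038 bp (8600 bp in pool G, 7001 in pool H). Insulin, Foxo and Akt genes stood at 5 of 19, nuclear receptors at 6 of 34, nuclear factor I at 2 of 4, circadian genes at 2 of 18, housekeeping genes at 2 of 17 and chromatin modifiers at 2 of 31. Neither circadian peak, at Bhlhe40 and Bhlhe41, reached 4 kb in pool H, with 2672 and 2394 bp, against 5384 and 4680 bp in pool G.

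**Figure D5:**
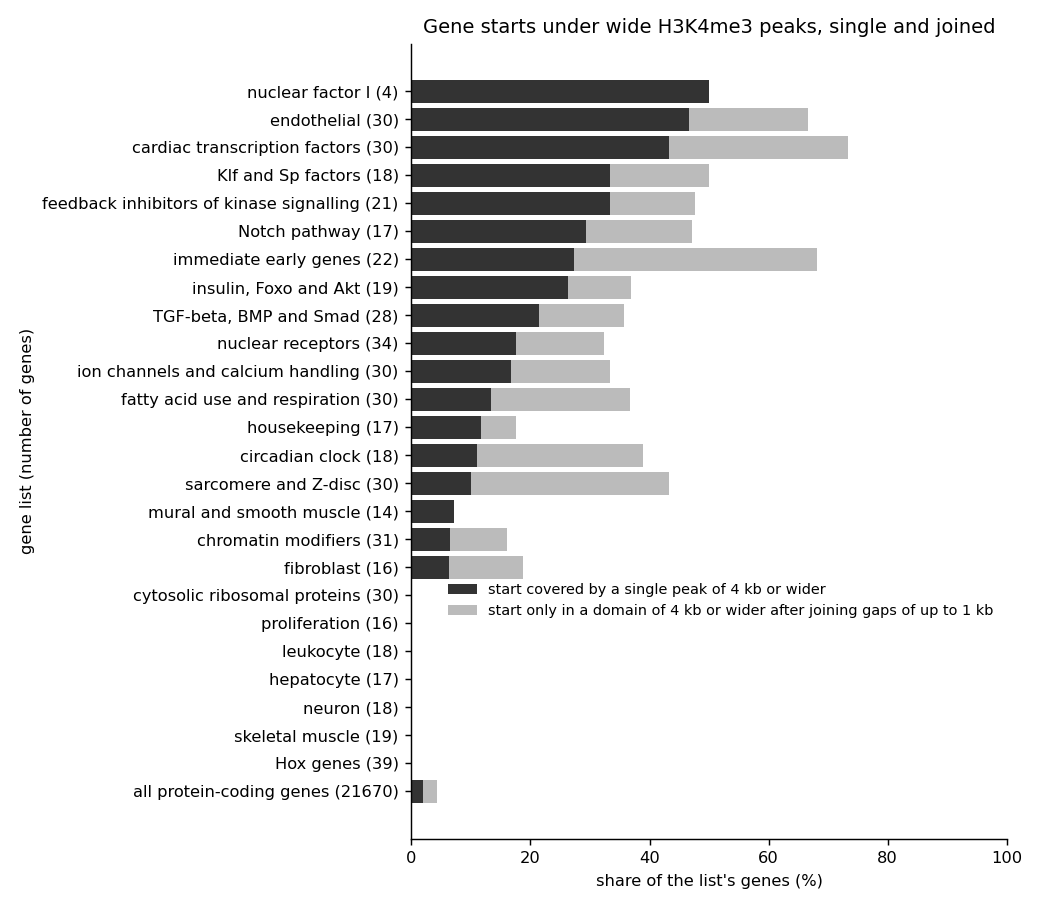
Share in % of each list's genes with a start under a single H3K4me3 peak of 4 kb or wider (dark) and of those with a start only in a domain of that width after joining gaps of up to 1 kb (light), with all 21670 protein-coding genes at the bottom. Cardiac transcription factors (13 of 30) and endothelial genes (14 of 30) are mostly dark, and sarcomere genes (3 of 30 single, 13 of 30 with joining) mostly light.

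Some groups had no start under a single wide peak, which at these list sizes is near the 1.93% of all protein-coding genes and sets none of them apart. These were 30 cytosolic ribosomal protein genes, all of which had a narrower peak at a start, and 16 proliferation, 18 leukocyte, 17 hepatocyte, 18 neuron, 19 skeletal muscle and 39 Hox genes. Among other cells of the heart wall, fibroblast markers stood at 1 of 16, Vim with 5335 bp (5356 bp in pool G, 4039 in pool H), and mural and smooth muscle markers at 1 of 14, Smtn with 4765 bp (5160 bp in pool G, 3047 in pool H). Any peak covered a start of 4 of 6 cardiomyocyte, 5 of 6 endothelial, 3 of 5 fibroblast and 3 of 5 mural defining markers. Over all protein-coding genes the count was 12783 of 21670. The cardiomyocyte, fibroblast and mural counts lie near that share, so they do not set these cell types apart. Leukocyte markers stood at 0 of 5, hepatocyte markers at 0 of 3 and neuron markers at 0 of 3.

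By chromosome, the wide peaks were densest per Mb on chromosome 11, with 42 peaks or 34.4 per 100 Mb, followed by chromosome 19 with 19 peaks. As a share of all peaks on the chromosome these were 2.10% and 2.17%. That share was largest on chromosome 15, at 2.46%. Chromosome X had 2 of its 708 peaks at 4 kb or more (0.282%), against 1.68% in the whole list. They lay at Ddx3x, an RNA helicase known to escape X inactivation, with 4871 bp, and at Tmsb4x, which encodes thymosin beta 4, with 4477 bp. Ddx3x had 5374 bp in pool G and 4414 in pool H, and Tmsb4x had 4969 bp in pool G and 4402 in pool H.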

How the data were processed

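Libraries of both pools were made from fragments of 200 to 600 bp, per the labels' library notes, with a protocol for frozen tissue. The 4 deposited lists, in narrowPeak format on mm10, were the replicated list of both pools and 3 pseudoreplicated lists (pool G, pool H, both together). Which peak caller and threshold produced them is not given in the sources used here, nor whether a control was used. The deposited signal column was taken to be a fold over control (a ratio), an assumption, since the files do not name it. The -log10 q values are also as deposited. Library depth is unknown, and no error from counting is given.

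Widths were end minus start in the deposited coordinates. Starts were those of protein-coding transcripts of GENCODE M21 on chromosomes 1 to 19 and X. A pool's width at a peak was that of its widest peak overlapping it by at least 1 bp. Sequence came from RefSeq GRCm38.p6, the patched form of the same build. Tools were bedtools 2.31.1 and, under Python 3.11.15, scipy 1.17.1, pandas 2.3.3, matplotlib 3.10.9 and numpy 2.4.6. Overlap, joining and CpG steps were tested on simulated data. Of 548 listed genes 1 was not matched.

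The peaks and the 25 gene lists were chosen with earlier results of these data known. The genes named were the widest, the strongest and weakest, those reaching farthest from the start, those covering the most starts, the widest without a coding start, those nearest the threshold, those in neither pool, those differing most between pools, those with the longest and shortest CpG-dense stretch, and per list the widest, with preference for genes that several of these name. Others (Cd36 by its 3 peaks, Adrb1, Hand2, Thbd, Slc25a4, Actb, Tbx5, the genes near starts and the X-linked pair) were named after their values were seen. Alternatives were other widths, lists, starts, overlaps and CpG bounds. Some items are not reported here.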

Additional observations from a re-analysis of the deposited data

How the results depend on the processing

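The number of wide peaks followed the width asked for, with 1139 at 3000 bp, 661 at 3500 bp and 156 at 5000 bp, and was 875 with gaps of up to 1000 bp joined. It was 421 in the pseudoreplicated list, with -log10 q of at least 5 and with overlapping rows merged. With 1 pool left out it ran from 235 to 555. The share that covers a protein-coding start was 79.3% with the start of the longest transcript only and 95.5% within 1000 bp of a start, and 90.2% to 91.5% with 1 pool left out. The median downstream share was 80.3% at 3000 bp, 81.9% at 3500 bp and 84.9% at 5000 bp, 79.2% from the start of the longest transcript, 73.9% from the start nearest the middle and 81.2% over all peaks with a covered start. With 1 pool left out it was 81.4% to 81.8%. The median signal was 13.9 to 18.9 with 1 pool left out. Retention in pool G was 98.8% by the outer span, 99.0% (99.05%) with gaps joined and 99.5% at 3000 bp. In pool H it was 78.1% by the span, 81.5% with gaps joined and 84.6% at 3000 bp. The longest CpG-dense stretch had a median of 1496 bp at a ratio of 0.5 and 1034 bp at 0.7, and 1236 to 1363 bp with 1 pool left out, and the CpG ratio 0.52 to 0.57. The cause of the differences between pools was not tested.

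No paired analysis was possible because the pools give 1 peak list each, so no test was run on them. The widths of a pool depend on its depth, which is unknown, and the spread between technical replicates was not analysed here.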

Other observations

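Several further groups of related genes had single wide peaks. They were put together after their values were seen, so they carry no count against other genes. Proteins that bind RNA included Mbnl1, a splicing factor, with 5133 bp (5973 bp in pool G, 4916 in pool H), and Rbm20, the splicing factor known for titin in heart muscle, with 4934 bp (6776 bp in pool G, 4829 in pool H). Rbm24, a muscle splicing factor, had 5595 bp (6005 bp in pool G, 2762 in pool H), and Hnrnph1 had 4177 bp (5327 bp in pool G, 1939 in pool H). Thus Mbnl1 and Rbm20 reached 4 kb in both pools, and Rbm24 and Hnrnph1 in pool G only.

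The genes of caveolae, the small pits of the cell membrane, included Cav1 with 7262 bp (7660 bp in pool G, 4772 in pool H) and Cavin2 with 6721 bp (6844 bp in pool G, 6442 in pool H), beside Cavin1. Chrm2, the muscarinic receptor of the heart, had 4300 bp (5133 bp in pool G, 2712 in pool H). Genes of lipid handling included Lpl, lipoprotein lipase, with 5084 bp (5127 bp in pool G, 4870 in pool H), Cpt1a, which admits fatty acids to mitochondria, with 4924 bp (5206 bp in pool G, 4945 in pool H), and Fabp4 with 5036 bp (5302 bp in pool G, 5024 in pool H). These 3 lipid genes reached 4 kb in both pools.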
